A study of Homo sapiens with 4 samples.

Results

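CXCR4, its ligand CXCL12 and the atypical receptor ACKR3 were examined as 1 chemokine axis, 3 of the 18417 genes named on the arrays. The 3 genes were taken by symbol, and each was represented by a single probe set that carried no other gene symbol (8055465 for CXCR4, 7933194 for CXCL12 and 8049471 for ACKR3). RNA of MDA-MB-231 cells, a long-established line from a triple-negative human breast cancer with mesenchymal-like features, was hybridised to 4 Affymetrix Human Gene ST arrays. Cells of 2 arrays carried a non-specific control hairpin (shNS), and cells of the other 2 carried a short hairpin RNA directed against DBC1 (shDBC1), a nuclear protein now named CCAR2 that inhibits the deacetylase SIRT1. No other treatment was given, and both lines carry a hairpin. The series describes the replicates as biological and independent. The sources used here do not give the number of hairpin sequences against DBC1 or whether a line is a clone or a pool. Values are log2 intensities normalised by the authors with RMA, which removes background, brings the arrays to a common distribution and combines the probes of each set into 1 value.

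CXCL12, also called SDF-1, is a chemokine made in large amounts by stromal cells of bone marrow, lung and lymph node. CXCR4 is a G protein-coupled receptor that passes the CXCL12 signal to inhibitory G proteins and drives directed migration, and it is known in breast cancer as a receptor of cells that metastasise to CXCL12-rich organs. ACKR3 (formerly CXCR7) binds CXCL12 and CXCL11, does not couple to G proteins in the usual way, and acts through arrestins and by taking up and degrading the ligand.

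The stretch before the CXCR4 start site is shown because factors reported to act on CXCR4 transcription, NRF1 among them, were measured on the same arrays. It comprises the 250 bases before the RefSeq start at chr2:136118150-136118399 of GRCh38.p14, read 5′ to 3′ on the minus strand. Capitals mark the NRF1 element GCGCATGCGC and the TATA box TATAAA.
CXCR4 promoter: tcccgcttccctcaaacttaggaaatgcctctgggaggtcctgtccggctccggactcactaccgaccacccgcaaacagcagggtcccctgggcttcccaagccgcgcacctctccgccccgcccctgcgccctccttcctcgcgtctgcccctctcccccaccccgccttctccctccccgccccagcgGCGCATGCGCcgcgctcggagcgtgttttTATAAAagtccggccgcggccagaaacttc
The NRF1 element, which reads the same on both strands, begins 59 bases before the start and the marked TATA box 30 bases before it. The search covered both strands, and a second TATA match, TTTATA, overlaps the marked one from 32 bases before the start. Among 34788 distinct stretches of the same length before the gene starts of the RefSeq table, 1.02% held the NRF1 element and 10.8% the TATA box. The core GGAA recognised by ETS factors, the family of ETV4, was found 4 times on either strand, and 92.8% of all stretches held it at least 1 time. Of the core bound by hypoxia-inducible factors, only the form ACGTG was searched. It was not found in this window, and 18.5% of all stretches held it. The form GCGTG, present between the NRF1 element and the marked TATA box, was not counted over all stretches. The table gave 3 windows for CXCR4, of which this one lies at the start of the annotated gene, and 1 for CXCL12.

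The hairpin target was lower in the cells labelled shDBC1. CCAR2 read 9.62 and 9.41 in shNS and 8.76 and 8.16 in shDBC1, a log2 difference of -1.06 (SE 0.23, 95% interval -1.67 to -0.44), which did not pass the threshold in limma (adjusted p = 1). Correlations between arrays over all probe sets ran from 0.991 to 0.995, and array medians lay between 7.32 and 7.40. Of 13813 genes tested, limma called 0 at an adjusted p under 0.05, which is 0% of them, and 475 (3.44%) had an unadjusted p under 0.05. The p-values rest on the spread between 2 arrays per group, which limma combines with a spread estimated from all genes tested. Having 2 arrays per group limits their precision.

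CXCR4 had the largest difference of the 3 genes, at 1.57-fold lower in shDBC1 cells. Its shNS arrays read 7.83 and 7.82, and its shDBC1 arrays 7.33 and 7.03. The control arrays were nearly equal, both shDBC1 arrays lay below them, and the groups were separated by a gap of 0.49. Both shDBC1 arrays lying below both shNS arrays was found for 13.2% of all genes tested. The group levels were 7.83 ± 0.0014 and 7.18 ± 0.21 (SD, n = 2), so the spread came from the shDBC1 arrays. The log2 difference was -0.65 (SE 0.14, 95% interval -1.02 to -0.27), which left 63.8% of the control intensity. The mean of CXCR4 lay below the 50th percentile of gene means, and RMA compresses the folds of dim genes. With an unadjusted p of 0.00757 and an adjusted p of 1 in limma, CXCR4 did not pass the threshold over all genes. In all, 1.38% of genes tested were at least 1.5-fold lower, a group of 190 that includes CXCR4, and CXCR4 was the 137th gene from the lowest by difference. By unadjusted p it was the 70th gene and CCAR2 the 72nd. A smaller share of CXCR4-expressing cells and less CXCR4 RNA per cell cannot be told apart in RNA from whole cultures.

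Among the shDBC1 arrays, CXCR4 was lower on the second (7.03) than on the first (7.33), as was CCAR2 (8.16 and 8.76). Both shNS arrays carried CXCR4 at the same level to within 0.0020, while CCAR2 differed between them by 0.20. Leaving out the first shDBC1 array gave a CXCR4 difference of -0.80, and leaving out the second gave -0.50. The 95% intervals were then -1.21 to -0.39 and -0.91 to -0.08. Without the first or without the second shNS array the difference stayed at -0.65, with intervals of -1.39 to 0.10 and -1.40 to 0.099. In each of these fits 1 group has a single array, which is assumed to vary like the pair of the other group.

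**Figure D1:**
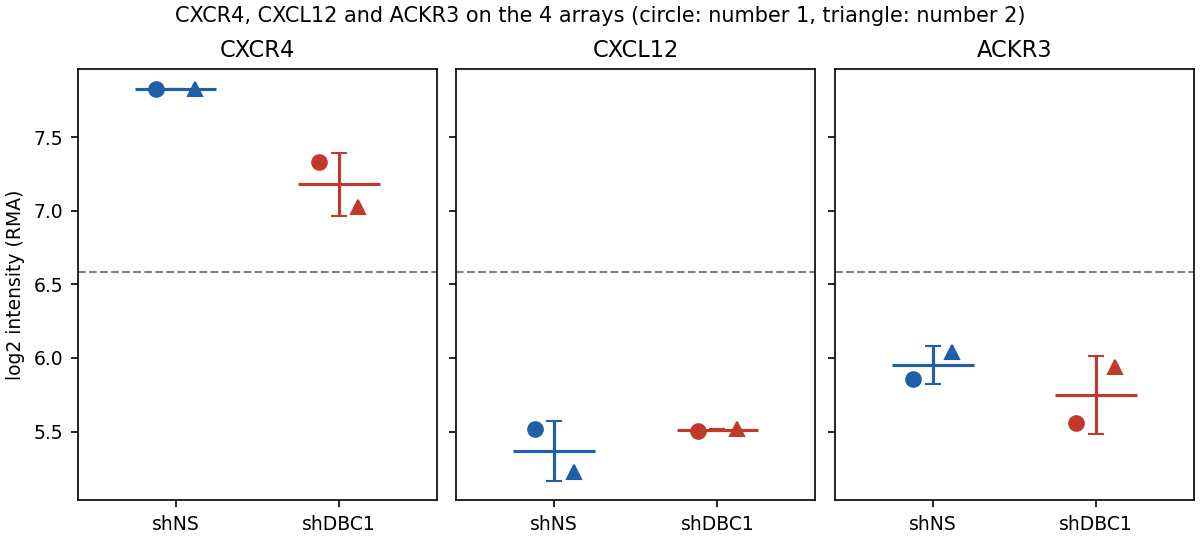
Log2 intensity of CXCR4, CXCL12 and ACKR3 on each array, with circles for the arrays numbered 1 and triangles for those numbered 2, and the mean ± SD of 2 arrays per group. The dashed line is the filter level of 6.58. Both CXCR4 shDBC1 points lie below both shNS points, while the groups overlap for CXCL12 and ACKR3, whose points are all below the line. Heights are to be compared within a panel, since probe sets differ in brightness at equal RNA.

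CXCL12 was dim on every array and gave no separation of the groups. It read 5.52 and 5.23 in shNS and 5.51 and 5.52 in shDBC1. The second shNS array was the lowest, and the first shNS and second shDBC1 arrays had the same value. Such identical values on that pair of arrays occurred for 6.82% of genes below the filter and 2.13% of genes tested. All 4 readings lay under 6.58, the 25th percentile of gene means, below which genes were not tested. The group levels were 5.37 ± 0.20 and 5.51 ± 0.0058 (SD, n = 2), and the difference was 0.14, with a 95% interval of -0.22 to 0.50 in a limma fit with no filter (adjusted p = 1). Without the second shNS array the difference was -0.0041. How far these readings stood above background is not known from normalised values, so neither presence nor absence of CXCL12 RNA can be read from them.

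ACKR3 was likewise below the filter on every array, and its groups overlapped. It read 5.86 and 6.04 in shNS and 5.56 and 5.94 in shDBC1. The first shDBC1 array was the lowest of the 4, and the second lay between the control arrays. The group levels were 5.95 ± 0.13 and 5.75 ± 0.27 (SD, n = 2), a difference of -0.20 with a 95% interval of -0.66 to 0.25 in the fit with no filter (limma adjusted p = 1). Without the first shDBC1 array the difference was -0.016, and without the second it was -0.39. The interval still included a difference of the size measured for CXCR4 (-0.65).

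**Figure D2:**
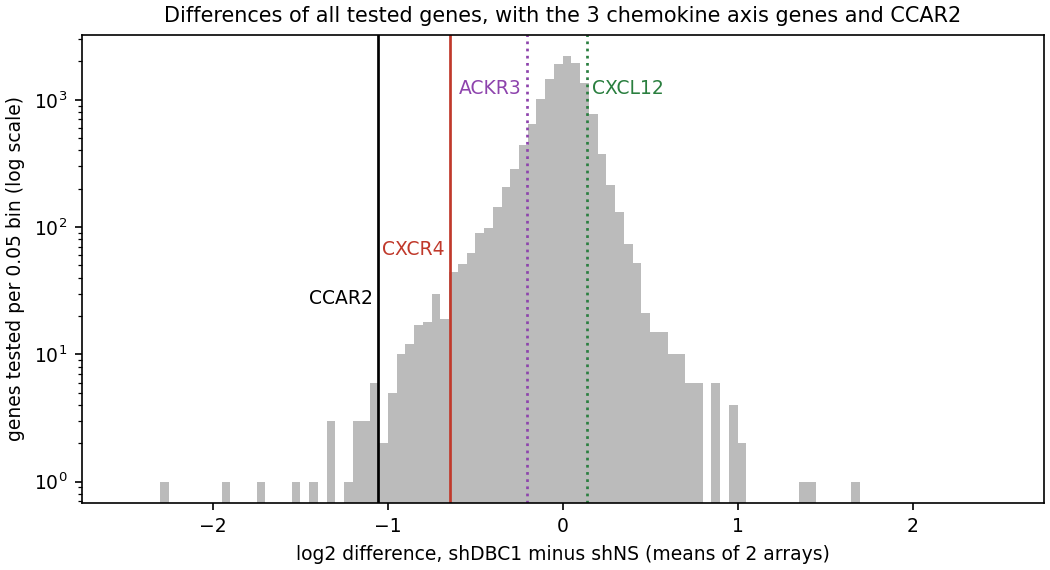
Number of genes tested (log scale) by log2 difference, shDBC1 minus shNS, in bins 0.05 wide. Vertical lines give CXCR4 (-0.65), CCAR2 (-1.06), and, dotted because they were not tested, ACKR3 (-0.20) and CXCL12 (0.14). CXCR4 lies in the lower tail, with 0.985% of genes tested below it.

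Of the other ligands and ligand-processing genes of the axis, CXCL11 showed the largest difference. CXCL11, an interferon-inducible chemokine that binds ACKR3 and CXCR3, read 7.52 and 7.49 in shNS and 6.36 and 5.60 in shDBC1, a difference of -1.52 (SE 0.27, 95% interval -2.23 to -0.81, limma adjusted p = 1). Both shDBC1 arrays lay below both controls and below the filter level, so CXCL11 was tested only through its shNS readings and the size of its fold is uncertain. CPM, a membrane carboxypeptidase reported to trim the end of CXCL12, read 7.99 and 7.96 in shNS and 8.42 and 8.41 in shDBC1, a difference of 0.43 (SE 0.10, limma adjusted p = 1). DPP4, the peptidase that inactivates CXCL12 by removing its first residues, read 7.49 and 8.10 in shNS and 6.95 and 8.63 in shDBC1. Its arrays numbered 2 were above those numbered 1 in both lines, and its difference of -0.01 had a 95% interval of -1.59 to 1.57. ADM (adrenomedullin), a peptide that ACKR3 also takes up, differed by 0.39 (interval -0.60 to 1.38), and CD44, a surface partner of CXCR4 signalling, by -0.18 (interval -0.46 to 0.10). ACKR5, another atypical receptor reported to bind CXCL12, differed by 0.06 (interval -0.23 to 0.36). In this list 0 of 11 tested genes passed, 2 had both shDBC1 arrays below and 2 both above the controls, against 13.2% and 11.6% of all genes tested, and the median was 0.064 against 0.0065 over all genes tested. The probe sets of MIF and HMGB1, further ligands or ligand partners, and of CD74, a MIF receptor, carried several symbols and were not used.

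Genes that couple CXCR4 to migration differed by between -0.38 and 0.39. Of 32 tested genes of this list, 0 passed in limma, 8 had both shDBC1 arrays below and 3 both above the controls, against 13.2% and 11.6% of all genes tested, and the median was -0.03. The inhibitory G protein subunit genes GNAI2 and GNAI3 differed by -0.11 (95% interval -0.47 to 0.24) and -0.03 (-0.37 to 0.31). PTK2, which encodes focal adhesion kinase, differed by -0.03 (-0.44 to 0.38), and the GTPase gene RAC1 by 0.0033 (-0.27 to 0.28). The smallest p in the list belonged to GNA12, a G protein subunit linked to RhoA, at -0.35 (SE 0.10), and to STAT3, a transcription factor activated downstream of CXCR4, at -0.38 (SE 0.12). GNA12 read 10.9 on both control arrays and 10.6 and 10.5 in shDBC1. STAT3 read 11.7 and 11.8 in shNS and 11.3 and 11.5 in shDBC1. Each had groups that did not overlap, an adjusted p of 1 in limma, and an unadjusted p under 0.05, as did 2.57% of all genes tested in that direction.

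Genes that switch the receptors off or carry them to the lysosome differed by between -0.31 and 0.73. Of 28 tested, 0 passed in limma, 7 had both shDBC1 arrays below and 3 both above the controls, against 13.2% and 11.6% of all genes tested, and the median was -0.03. An unadjusted p under 0.05 on the higher side was found for 2 of them, against 0.869% of all genes tested, and on the lower side for 1, against 2.57%. The receptor kinase genes GRK2 and GRK6 differed by -0.04 (95% interval -0.35 to 0.26) and -0.16 (-0.48 to 0.17), and the related GRK3, reported to limit CXCR4 signalling, by -0.31 (SE 0.11). ARRB1, an arrestin gene, differed by -0.04 (-0.51 to 0.43), and ITCH, the ubiquitin ligase that marks CXCR4 for degradation, by -0.02 (-0.36 to 0.32). RGS4, whose product speeds the shut-off of inhibitory G proteins, had the largest difference of the list. It read 8.78 and 8.56 in shNS and 9.71 and 9.08 in shDBC1, a difference of 0.73 (SE 0.24, 95% interval 0.093 to 1.36, limma adjusted p = 1), and 0.376% of genes tested were at least 1.5-fold higher. RGS16, of the same family, differed by 0.04 (-0.23 to 0.32).

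Transcription factors and other regulators reported to act on the receptor genes had 0 of 19 members past the threshold in limma, against 0% of all genes tested. An unadjusted p under 0.05 was found for 0 of them, against 3.44% of all genes tested. NRF1, an activator that binds the element marked in the CXCR4 promoter, read 8.35 and 8.29 in shNS and 8.22 and 8.02 in shDBC1, a difference of -0.20 (95% interval -0.53 to 0.12). Both its shDBC1 arrays lay below both controls, with the second the lowest. YY1, a reported repressor of CXCR4, differed by 0.0015 (-0.27 to 0.27). The hypoxia-inducible factor genes HIF1A and EPAS1 differed by 0.13 (-0.45 to 0.71) and -0.02 (-1.23 to 1.19), and VHL, which encodes the ligase that destroys them, by -0.26 (-0.62 to 0.10). EPAS1 read 9.74 and 10.8 in shNS and 9.87 and 10.7 in shDBC1, with the arrays numbered 2 above those numbered 1 in both lines. The NF-kB subunit genes NFKB1 and RELA differed by -0.26 (-1.06 to 0.53) and -0.06 (-0.34 to 0.22). ETV4, the ETS factor of the PEA3 group, differed by -0.26 (-0.66 to 0.13), and MYC by 0.34 (-0.05 to 0.73). HIC1, a reported repressor of ACKR3, differed by 0.03 (-0.39 to 0.44). Of the 19, 4 had both shDBC1 arrays below and 1 both above the controls, against 13.2% and 11.6% of all genes tested, and the median was -0.0062.

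Other chemokine receptors were mostly too dim to be tested, with 14 of 19 below the filter level. Of the 5 tested, CCRL2, an atypical receptor that holds the chemoattractant chemerin at the cell surface, read 8.82 and 9.54 in shNS and 8.77 and 8.73 in shDBC1, a difference of -0.43 (95% interval -1.12 to 0.26). CCR10 differed by 0.22 (-0.21 to 0.65). None of the 5 passed in limma, and 0 had an unadjusted p under 0.05, against 0% and 3.44% of all genes tested.

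CXCR4 belongs to a list of genes reported as high in MDA-MB-231 sublines that colonise bone, and that list split in both directions. Of its 7 tested members, 3 had both shDBC1 arrays below the controls, CXCR4 itself among them, and 4 had both above. The shares over all genes tested were 13.2% and 11.6%, and the list median was 0.12. MMP1 (-1.24, SE 0.15) and FST (-0.56, SE 0.18) stood with CXCR4 on the lower side. FGF5, a fibroblast growth factor gene, read 8.39 and 8.36 in shNS and 8.86 and 8.71 in shDBC1 (0.41, SE 0.11). SRGN differed by 0.35 (SE 0.11), and the matricellular gene CCN2 by 0.27 (SE 0.10). IL11, an osteoclast-stimulating cytokine gene, differed by 0.12 (95% interval -0.19 to 0.42). SPP1 (osteopontin) was below the filter, with 6.10 and 6.01 in shNS and 6.02 and 6.06 in shDBC1. Of 15 tested genes reported from lung-colonising sublines, 6 had both shDBC1 arrays below and 4 both above the controls, with a median of -0.09. VCAM1, an adhesion molecule gene, read 7.25 and 6.85 in shNS and 6.40 and 6.37 in shDBC1 (-0.66, SE 0.17). Both its shDBC1 readings were under the filter level, so VCAM1 was tested only through its shNS readings and the size of its fold is uncertain. CXCL1 differed by -0.89 (SE 0.21), ID1 by -0.92 (SE 0.31) and ANGPTL4 by 0.96 (SE 0.21). PTGS2 differed by -0.06 with an interval of -1.66 to 1.53, since both its arrays numbered 2 lay above those numbered 1. None of the tested genes of either list passed the limma threshold, and each one named here had an adjusted p of 1.

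**Figure D3:**
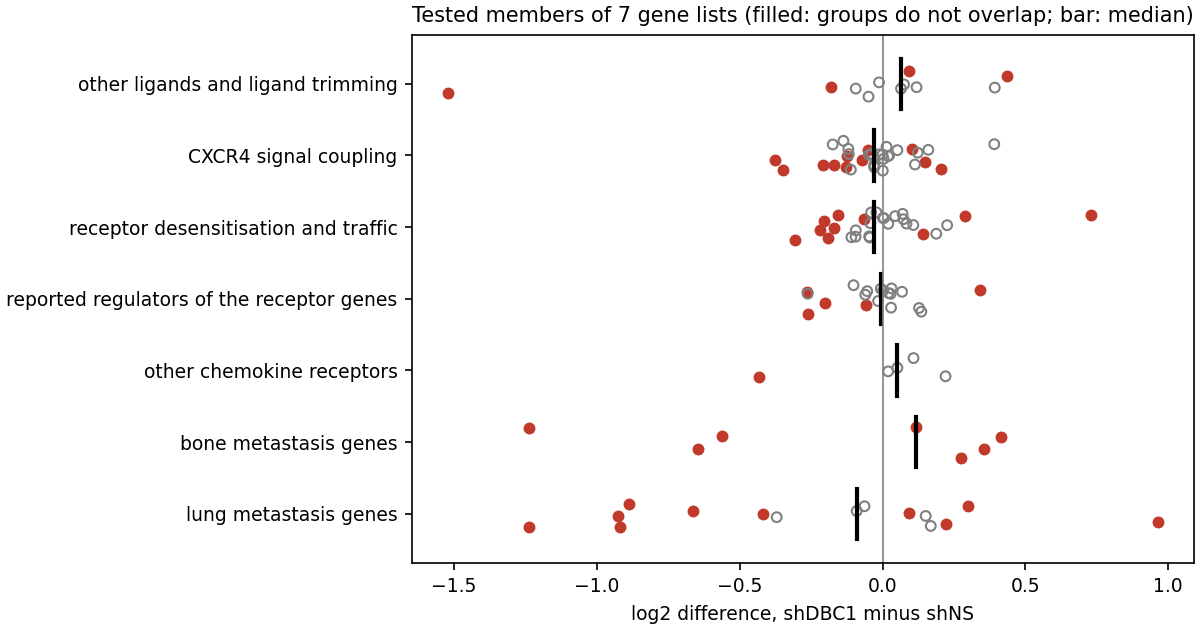
Log2 difference, shDBC1 minus shNS, of every tested member of 7 gene lists (points), with the list median as a bar. Filled points are genes whose groups do not overlap, which held for 24.9% of all genes tested. The signal coupling, desensitisation and regulator lists centre close to 0, with medians of -0.03, -0.03 and -0.0062, and CXCR4 (-0.65) is among the lower points of the bone list.

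The genes whose profile over the 4 arrays was nearest to that of CXCR4 were VCL, ICOSLG, RBMS1, EFCAB14 and ZC3HAV1L. Nearness was the root mean square distance between log2 profiles after each was centred on its own mean, and it ran from 0.038 for VCL to 0.054 for ZC3HAV1L. A total of 52 of the 13812 other genes tested lay within 0.1. VCL, which encodes the focal adhesion protein vinculin, read 11.1 and 11.2 in shNS and 10.7 and 10.4 in shDBC1, a difference of -0.65. ICOSLG, the ligand of the T cell costimulator ICOS, differed by -0.71, and RBMS1, an RNA-binding protein gene, by -0.61. EFCAB14 differed by -0.56 and ZC3HAV1L by -0.60. All 5 shared with CXCR4 the higher control arrays and the lowest value on the second shDBC1 array, a property that the choice by nearness sets.

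**Figure D4:**
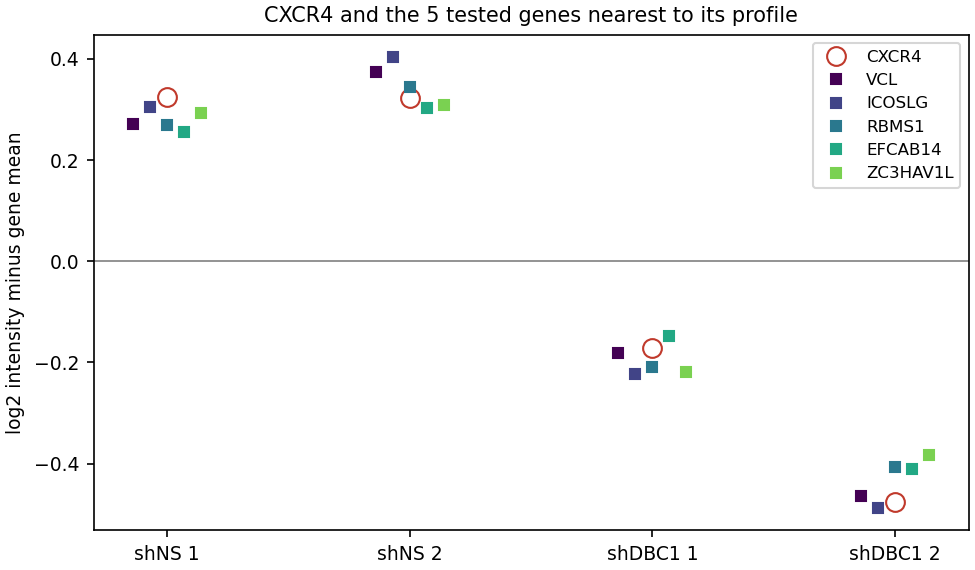
Log2 intensity minus the gene's mean over 4 arrays for CXCR4 (open circles) and the 5 genes nearest to it (squares). CXCR4 lies at 0.32 on both shNS arrays, at -0.17 on the first and at -0.48 on the second shDBC1 array, and the other genes follow it closely by selection.

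Markers of the cell line and of cells that could bring their own CXCR4 or CXCL12 were read beside these values. All 6 measured mesenchymal-like markers were above the filter level. Of these, 4 had a difference below zero and 2 above, against 6594 below and 7216 above of 13813 genes tested. The median was -0.15, against 0.0065 over all genes tested. Both shDBC1 arrays lay below the controls for 3 and above them for 1, against 13.2% and 11.6% of all genes tested. FN1 differed by -0.48, CAV1 (caveolin) by -0.35, CD44 by -0.18 and VIM by -0.12, while AXL differed by 0.08 and ZEB1 by 0.07. Among luminal markers, the hormone receptor genes ESR1 and PGR were below it on all arrays. Of the 5 luminal markers tested, 4 had a difference below zero, and the median was -0.28. For 1 of them both shDBC1 arrays lay below the controls, against 13.2% of all genes tested. GATA3, a luminal transcription factor gene, differed by -0.47, KRT19 by -0.28, CDH1 by -0.08 and FOXA1 by 0.18 (limma adjusted p = 1 for each). For leukocytes, which express CXCR4, 4 of 7 markers were below the filter, the pan-leukocyte gene PTPRC (4.49 and 4.52 in shNS, 4.39 and 4.54 in shDBC1) among them. The sum of the 7 leukocyte log2 levels was 44.5 and 45.9 in shNS and 44.5 and 45.4 in shDBC1, and the part of such cells in the CXCR4 difference was not tested. CD79A (0.20) and ITGAM (0.04) were the leukocyte markers with the smallest p. CD14, the brightest of them, read 8.44 and 9.59 in shNS and 8.56 and 9.46 in shDBC1. LYZ, whose mean was below the filter, read 6.12 and 7.49 in shNS and 6.11 and 6.23 in shDBC1. For fibroblasts, which make CXCL12, 4 of 7 were below the filter, DCN and PDGFRA among them, with log2 levels that summed to 42.9 and 43.9 in shNS and 42.7 and 46.1 in shDBC1. COL1A1 and COL3A1 differed by 0.15 and 0.04. PDGFRB, also tested, read 7.43 and 8.39 in shNS and 7.44 and 8.55 in shDBC1. LUM, whose mean was below the filter, read 5.02 and 5.92 in shNS and 5.17 and 7.01 in shDBC1. For endothelial cells 2 of 6 were below it, with sums of 40.2 and 41.1 in shNS and 40.8 and 40.7 in shDBC1. KDR differed by 0.42 (SE 0.11) and PECAM1 by -0.69 (95% interval -2.10 to 0.72). None of these marker genes passed the limma threshold.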

How the data were processed

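The authors deposited 1 log2 intensity per probe set and array, for 33297 probe sets on 4 arrays. GCOS and RMA were used, per the submitters' processing notes, and the sources used here give no versions or genome build. That the scale is log2 was inferred from RMA and from the range (2.52 to 14.1). RMA compresses the folds of dim genes, and normalisation hides a shift shared by all genes. Of the probe sets, 19460 had 1 symbol in the platform annotation and 1754 several, which were not used. A gene was represented by its brightest probe set, and 4604 genes with means below the 25th percentile (6.58) were left out of tests.

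shDBC1 was compared with shNS in limma 3.58.1 (R 4.3.3; lmFit, eBayes, two-sided, group only), with Benjamini-Hochberg adjustment over 13813 genes at 0.05. Intervals are 95%. The code was tested on simulated data. Promoters are RefSeq sequences. List genes not matched to a probe set of their own by current symbol, such as ARRB2, were not analysed here.

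The members and lists were chosen with earlier results of these data known. Genes named were the 3 members, CCAR2, genes picked for their role, up to 2 more per list by unadjusted p, and the 5 nearest to CXCR4. Markers below the filter, FN1, VIM, AXL, ZEB1, CDH1, FOXA1, PDGFRB, CD14, ACKR5, KYNU, FST and SRGN were named after their values were seen. Alternatives covered filters, normalisation, priors, probe sets, a replicate block and leaving out each array.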

Additional observations from a re-analysis of the deposited data

How the results depend on the processing

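Limma called 0 genes in the fit by group, and likewise 0 under both other filters, 3 other normalisations, 2 other priors, the mean of probe sets and each left-out array. With a replicate block it called 113 (94 lower, 0.681% of genes tested; 19 higher, 0.138%). Differences between the arrays numbered 1 and 2 correlated between the lines across genes (0.653), so same-numbered arrays had shifts in common. What those arrays shared is not stated, and with 2 numbers the source of the shifts cannot be told. With the replicate block CCAR2 (-1.06) passed (limma adjusted p = 0.0232) and CXCR4 (-0.65) did not (0.0568). CXCL11, MMP1, ID1, KYNU and ANGPTL4 were the list genes that passed, CXCL11 having entered the test only through its shNS readings. CXCR4 stayed lower throughout, from -0.80 to -0.50 with an array left out (CCAR2 -1.36 to -0.75) and from -0.67 to -0.65 otherwise. Because its groups do not overlap, leaving out an array could not reverse the sign of the CXCR4 difference. The other filters and priors, the replicate block and, for genes with a single probe set, the probe-set mean leave a gene's difference unchanged. Among those settings only the 3 other normalisations could move it. CXCR4 was not tested under the 50th percentile filter. With an array left out, ACKR3 ran from -0.39 to -0.016 and CXCL12 from -0.0041 to 0.28. Other settings gave ACKR3 -0.22 to -0.20 and CXCL12 0.12 to 0.14. Normalised values keep no signal over background, which limits what the readings of CXCL12 and ACKR3 can show.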
